A study of Mus musculus with 5 samples.

Results

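B16F1 mouse melanoma cells treated with TGF-β1 and the compound CCG1423 together (both agents) were compared with B16F1 cells given vehicle, across all genes on the array. The comparison rests on 2 of the 5 arrays of the series, 1 array per condition, so it has no replicate. It is described by levels, folds and counts, and no test of single genes is used to call a difference. The first array held cells kept for 2 days in 10 ng/ml TGF-β1 together with 10 µM CCG1423. The second held cells that received vehicle, for a time that the labels do not give. Both conditions used unmodified B16F1 cells, a pigmented line from the C57BL/6 mouse, and the labels name no other agent or allele. The remaining arrays held B16F1 cells with TGF-β1 alone and 2 Tmsb4x knockout clones with TGF-β1, and they appear here only where a value is set beside them. No array held cells with CCG1423 alone, so in this comparison the share of either agent in a difference cannot be told apart. The treatment field of the first array names CCG1423 alone, whereas its title, description and source name give both agents.

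TGF-β1 binds a receptor serine kinase pair that phosphorylates SMAD2 and SMAD3, which enter the nucleus with SMAD4 and switch on matrix, cytoskeletal and feedback inhibitor genes. A second arm runs through actin: when monomeric actin is used up by filament growth, the coactivators MRTF-A and MRTF-B are released, enter the nucleus and drive SRF at genes of the contractile cytoskeleton. CCG1423 is a small molecule found in a screen for inhibitors of MRTF-SRF transcription, and the series used it as an MRTF inhibitor. Thymosin β4, the product of Tmsb4x, holds actin in its monomeric form.

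Total RNA was labelled with Cy3 and hybridised to 1-colour Agilent arrays. A level is the log2 of the background-subtracted signal minus the 75th percentile of the same array, so a level of 0 equals that percentile, and levels are compared only for the same gene between arrays. That percentile was 230 signal units with TGF-β1 plus CCG1423 and 299 with vehicle, and 49.9% and 52.2% of 56595 probes were well above background, within the range of 48.2% to 53.8% over all 5 arrays. Among probes printed 5 times or more, the median SD between spots was 0.044 with TGF-β1 plus CCG1423 and 0.042 with vehicle, on the log2 scale. This covers printing and hybridisation on an array and not the spread between cultures. All 7 melanocyte markers examined (Mitf, Sox10, Tyr, Tyrp1, Dct, Pmel and Mlana) were well above background on both arrays. Of markers of other cell types, those well above background with TGF-β1 plus CCG1423 and with vehicle were 5 and 5 of 14 for immune cells, 2 and 2 of 10 for endothelial cells, 3 and 4 of 11 for epithelial cells, and 1 and 2 of 11 for fibroblasts. In a bulk sample a lower level from fewer cells of a kind and from less RNA per cell cannot be told apart.

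Of 13877 genes well above background on at least 1 of the 2 arrays, 1068 (7.7%) were 2-fold or more higher with TGF-β1 plus CCG1423 and 1120 (8.07%) were 2-fold or more lower. Over single probes the counts were 2473 (7.99%) higher and 2383 (7.7%) lower of 30956. At 4-fold the gene counts were 301 higher (2.17%) and 210 lower (1.51%). Most of these genes were measured on both arrays: 12504 genes were, of which 726 (5.81%) were higher and 847 (6.77%) lower by 2-fold. The spread between cultures of one condition could not be measured here. As the nearest yardstick, the 2 knockout clones under TGF-β1 differed by 2-fold at 1075 of 13894 genes (7.74%), against 15.8% between TGF-β1 plus CCG1423 and vehicle. Among genes above background on both arrays compared, the SD of the log2 differences was 0.71 for TGF-β1 plus CCG1423 against vehicle and 0.52 for clone 1 against clone 2. The share of genes at 2-fold depended on level: 10.0% were higher and 8.06% lower in the dimmest of 4 equal bins of genes, against 3.23% higher and 5.98% lower in the brightest bin. Of 5113 genes with several measured probes, 1054 had at least 1 probe at 2-fold, 320 had all probes past 2-fold the same way, and 9 had probes past 2-fold in opposite directions.

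**Figure D1:**
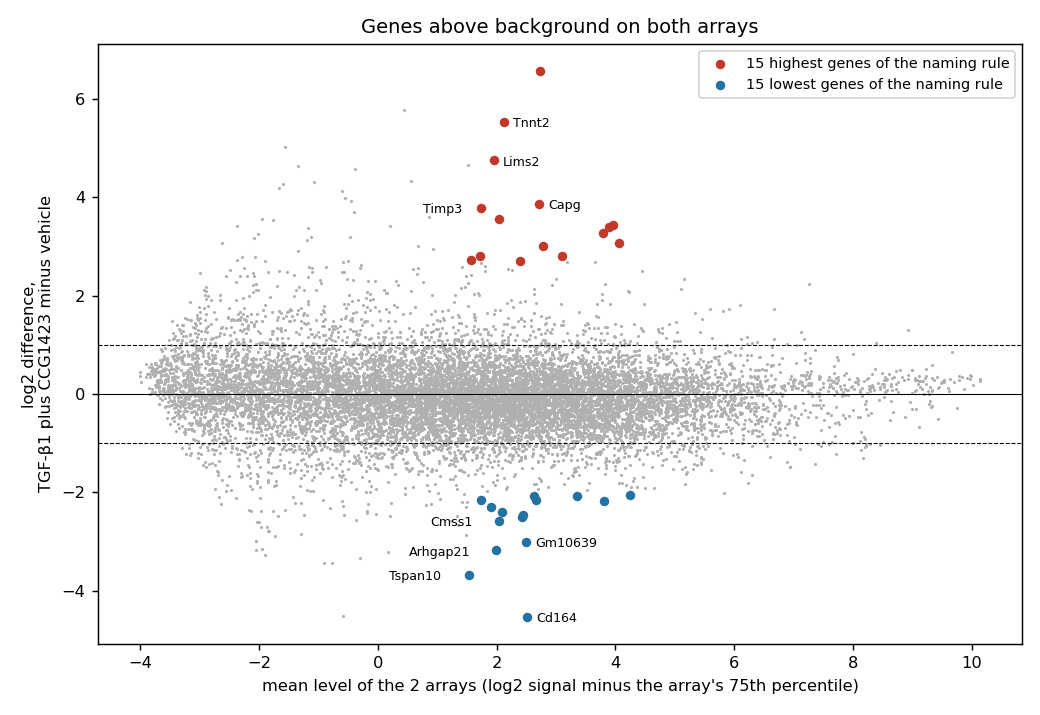
Each point is 1 of the 12504 genes well above background on both arrays; the x axis is its mean level over the 2 arrays and the y axis its log2 difference, TGF-β1 plus CCG1423 minus vehicle. The dashed lines mark 2-fold, and the coloured points are the 15 highest and 15 lowest genes among those with a mean level above the median, among them Tnnt2 at 5.54 and Cd164 at -4.52.

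Among well-measured genes, the 15 with the largest positive differences were each 6.56-fold or more higher with both agents. Tnnt2, cardiac troponin T, stood at 4.89 with TGF-β1 plus CCG1423 and -0.65 with vehicle, 46.5-fold higher, and Lims2, which encodes the focal adhesion adaptor PINCH-2, at 4.33 with TGF-β1 plus CCG1423 and -0.43 with vehicle. Capg, an actin filament capping protein of the gelsolin family, was 14.7-fold higher, and Timp3, a tissue inhibitor of metalloproteinases, was 13.9-fold higher with its 2 probes giving log2 differences of 3.54 and 3.79. Others of this group were the SMAD feedback genes Pmepa1 (10.9-fold) and Tgif1 (6.98-fold), the netrin receptor Unc5b (8.1-fold), the stress-inducible chromatin protein Nupr1 (9.7-fold), the cGMP-dependent kinase Prkg2, the AMPK-related kinase Nuak1, the small GTPase Rab15, and Hcfc1r1, Phyhd1 and Zfr2. These genes did not share one relation to the array with TGF-β1 alone. Tnnt2 was at 4.89 with both agents and 5.78 there, while Nupr1 (2.07) was there at about its level with vehicle (2.15) and Timp3 (1.22) lay between its levels on the other arrays. Some of these genes also differed between knockout clones 1 and 2, such as Prkg2 (2.53 and -0.05), Rab15 (6.09 and 3.87) and Unc5b (2.70 and 1.30). Others differed little between the clones, such as Tgif1 (3.03 and 3.06) and Hcfc1r1 (4.44 and 4.57).

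The 15 most reduced of the well-measured genes ran from 4.15-fold to 23-fold lower. Cd164, a sialomucin of the cell surface and endosomes, had levels of 0.25 with both agents, 4.96 with TGF-β1 alone and 4.77 with vehicle. Tspan10, a tetraspanin expressed in pigment cells, was 12.8-fold lower. The others included Ccnd1, the cyclin that starts G1 (4.5-fold lower, 2.73 with both agents against 4.90 with vehicle), Etv5, an ETS factor downstream of receptor kinases (5.64-fold), Ddx21, a nucleolar helicase of ribosome synthesis (5.3-fold), Apex1, the main abasic site endonuclease (4.46-fold), and the replicative helicase subunit Mcm7. Arhgap21, a GTPase-activating protein, was 9.04-fold lower by its brighter probe, but its other probe gave a log2 difference of 0.21. The remaining genes of the group were Gm10639, Cmss1, Apold1, the monoacylglycerol lipase Mgll, Spsb4, the matricellular gene Sparcl1 and Epop, between 4.21-fold and 7.98-fold lower. Etv5 (1.40 and 3.61) and Mgll (1.41 and 3.45) also differed between knockout clones 1 and 2. Cd164 (4.85 and 5.15) and Mcm7 (5.06 and 4.59) differed less between the clones.

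The known genes were then grouped by role, and the counts in each group are read against the 7.7% of all genes higher and 8.07% lower by 2-fold, and against a median difference of -0.05 over all genes. Knockout clone 1 minus clone 2 gave group medians as a yardstick. They were 0.41 for the integrated stress response, 0.36 for fibrillar and other matrix collagens, 0.31 for ribosomal proteins and -0.36 for melanin and melanosome genes. Further from 0 were -3.08 for interferon response genes, 1.94 for 3 fibroblast markers, 0.52 for S100 proteins, -0.49 for the aryl hydrocarbon receptor pathway and -0.42 for p53 targets. Medians of these sizes thus also arose between 2 knockout clones given the same agent. The interferon median was further from 0 than any group median against vehicle. For DNA replication, cholesterol synthesis and TGF-β feedback inhibitors the clone medians were 0.19, -0.18 and 0.05.

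**Figure D2:**
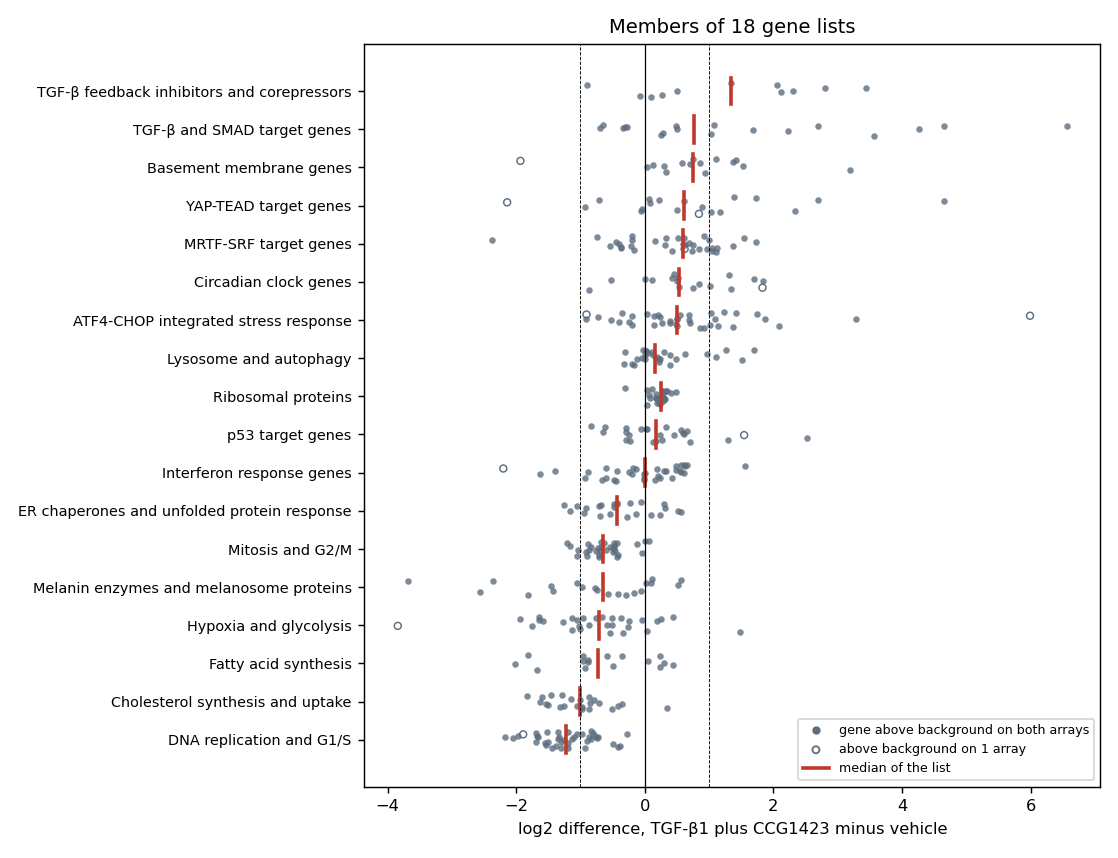
Each point is a measured member of 1 of 18 gene groups, placed on the x axis by its log2 difference, TGF-β1 plus CCG1423 minus vehicle; open points were above background on 1 of the 2 arrays only, and the red bar is the group's median. Medians run from -1.22 for DNA replication and G1/S genes to 1.33 for TGF-β feedback inhibitors, and the dashed lines mark 2-fold.

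Genes of the TGF-β pathway stood high with TGF-β1 plus CCG1423. Of 18 measured TGF-β and SMAD target genes, 9 were 2-fold or more higher and none was lower by 2-fold, with a median log2 difference of 0.77. Of 11 measured feedback inhibitors and corepressors, 6 were higher and none lower by 2-fold, with a median of 1.33. Ccn2, a matricellular protein also named connective tissue growth factor, had levels of 3.85 with TGF-β1 plus CCG1423 and -0.80 with vehicle and was 25.2-fold higher. Il11, a cytokine of the IL-6 family, had levels of 0.54 with both agents, -2.19 with TGF-β1 alone and -3.74 with vehicle, 19.3-fold higher with both agents than with vehicle. The ligand gene Wnt9a (6.49-fold), fibronectin Fn1 (4.7-fold), the AP-1 subunit Junb (3.2-fold), the helix-loop-helix inhibitor Id3 (2.11-fold) and the BMP antagonist Nog (2.05-fold) were also higher. The 3 probes of Fn1 gave 2.23 to 2.30. Col1a1, the α1 chain of collagen I, was 11.8-fold higher.

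The inhibitors of the pathway that were higher act at several steps. Smad7 (4.36-fold) and Smad6 (4.94-fold) encode inhibitory SMADs that block the receptors, Skil (4.15-fold) and Tgif1 encode nuclear corepressors of SMAD complexes, Pmepa1 encodes a membrane protein that sequesters SMADs, and Fstl3 (2.52-fold) encodes a secreted activin antagonist. Smad7 stood at 1.16 with both agents, 1.62 with TGF-β1 alone and -0.96 with vehicle. Of 13 measured ligands, receptors and SMADs, 3 were higher and 1 lower, with a median of 0.45. Gdf15, a stress-induced ligand of the superfamily, was 3.64-fold higher, the co-receptor Tgfbr3 2.24-fold higher, and the type II receptor Tgfbr2 2.03-fold lower. Tgfb1 itself was above background only with TGF-β1 plus CCG1423, at a dim level of -3.18 on 1 of its probes.

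**Figure D3:**
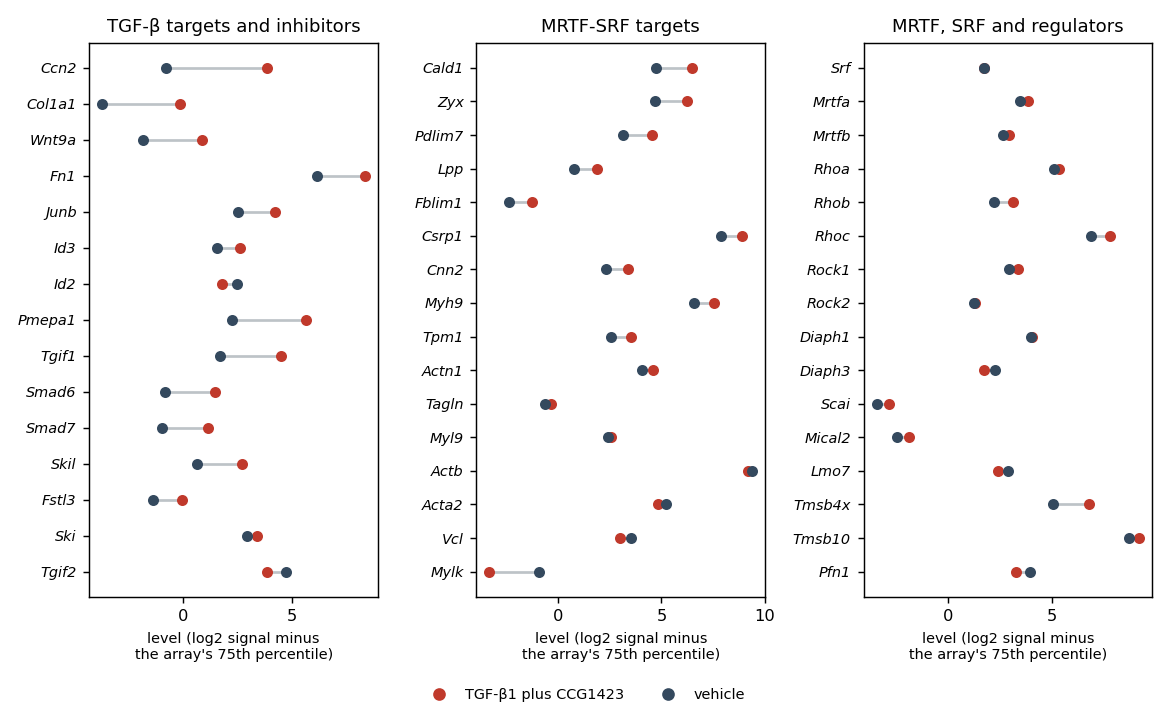
Level of each gene on the x axis (log2 signal minus the array's 75th percentile) with TGF-β1 plus CCG1423 in red and with vehicle in dark blue. TGF-β targets such as Ccn2 (3.85 with both agents against -0.80 with vehicle) lie far apart, MRTF-SRF targets lie on both sides, and Srf, Mrtfa and Mrtfb differ by at most 0.41 on the log2 scale.

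MRTF-SRF target genes were not low as a group. Of 34 measured members, 8 were 2-fold or more higher with TGF-β1 plus CCG1423, 1 was lower, and the median log2 difference was 0.60. The 8 were the actin-binding caldesmon Cald1 (3.33-fold), the focal adhesion LIM proteins Zyx (2.9-fold), Pdlim7 (2.58-fold), Lpp (2.17-fold) and Fblim1 (2.16-fold), the LIM protein Csrp1 (2.06-fold), the calponin Cnn2 (2.06-fold) and the nonmuscle myosin heavy chain Myh9 (log2 difference 1.00). Mylk, the kinase that activates myosin II, was 5.21-fold lower. Within 2-fold were smooth muscle actin Acta2 (-0.37), β-actin Actb (-0.21), transgelin Tagln (0.31) and vinculin Vcl (-0.54), all as log2 differences. Myl9, a regulatory light chain of myosin II, had levels of 2.55 with both agents, 3.73 with TGF-β1 alone and 2.40 with vehicle. No regulator of the pathway passed 2-fold among 17 measured. Srf differed by 0.03, Mrtfa by 0.41 and Mrtfb by 0.27, and the small GTPase genes Rhob (0.94) and Rhoc (0.91) were nearest the threshold.

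The actin monomer pool genes included a clear difference in Tmsb4x. Its level was 6.79 with both agents, 7.12 with TGF-β1 alone and 5.05 with vehicle, 3.34-fold higher with both agents than with vehicle. Tmsb10, its paralog, differed by 0.48 and profilin Pfn1 by -0.66 on the log2 scale. Of 19 measured genes of actin monomer binding and turnover, 4 were higher and none lower by 2-fold; they were Tmsb4x, Capg, the cofilin phosphatase Ssh1 (2.52-fold) and the cofilin kinase Limk2 (2.15-fold). Among 12 measured genes of troponins and striated muscle, 3 were higher: Tnnt2, Lims2 and the fast skeletal troponin T gene Tnnt3 (3.1-fold). Of the 12, 5 had differences below 0, 9 were above background on both arrays, and the median was 0.24.

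SRF binds DNA at the CArG box, and promoter windows of 300 bases (250 before the start and 50 after, from RefSeq, build GRCm38.p6) were searched for it. It was found in 10 of 29 MRTF-SRF targets with a window (34.5%), against 1.62% of the 11069 of 13877 measured genes with a window and 1.63% of all 32851 windows. The box was also in 3 of 9 melanocyte lineage regulators (33.3%) and in 0 of 16 genes of cholesterol synthesis and uptake. Among all genes with a window it was in 22 of 826 that were higher (2.66%) and 11 of 889 that were lower (1.24%). Windows of a gene that was higher, Cnn2, and of one that was not, Vcl, are shown to set the motif beside both outcomes; each window reads 5′ to 3′ on the gene's strand. Capitals mark the CArG box, and in none of the windows printed here does another motif searched overlap the one marked.
Cnn2 (chr10:79988350-79988649, plus strand): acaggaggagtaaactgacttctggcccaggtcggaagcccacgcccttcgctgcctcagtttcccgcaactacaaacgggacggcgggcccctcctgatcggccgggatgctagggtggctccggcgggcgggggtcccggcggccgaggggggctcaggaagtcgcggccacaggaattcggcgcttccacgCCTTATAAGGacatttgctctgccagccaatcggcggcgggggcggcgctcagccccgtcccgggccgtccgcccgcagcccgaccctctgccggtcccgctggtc
Vcl (chr14:20929148-20929447, plus strand): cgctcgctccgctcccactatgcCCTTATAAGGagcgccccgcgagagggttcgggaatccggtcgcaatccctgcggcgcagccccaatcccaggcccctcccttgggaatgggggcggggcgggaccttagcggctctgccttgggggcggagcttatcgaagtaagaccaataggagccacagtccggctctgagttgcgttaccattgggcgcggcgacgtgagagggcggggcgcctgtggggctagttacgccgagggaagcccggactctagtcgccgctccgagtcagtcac
With the box in both windows, Cnn2 had levels of 3.38 with TGF-β1 plus CCG1423 and 2.34 with vehicle and Vcl 2.99 with TGF-β1 plus CCG1423 and 3.53 with vehicle.

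YAP and TEAD share the CCN genes and other targets with the actin pathway. Of 19 measured YAP-TEAD targets, 7 were higher and none lower by 2-fold, with a median of 0.61. Axl, a receptor kinase for GAS6, had levels of 5.0 with TGF-β1 plus CCG1423 and 2.30 with vehicle and was 6.48-fold higher. Ccn1 was 5.06-fold higher and Gadd45b 3.31-fold higher, while the Hippo kinase gene Lats2 was 2.04-fold higher; Ccn2, Rbms3 and Crim1 complete the 7. Extracellular matrix genes differed by kind. Basement membrane genes were mostly above 0, at 14 of 15 measured, with 5 higher and a median of 0.75. Among the 5 were the laminin chains Lamb1 (2.6-fold) and Lama5 (2.16-fold), and both major collagen IV chains, Col4a1 (2.89-fold) and Col4a2 (2.68-fold). Among 19 other collagens, 4 were higher, led by Col1a1 and by Col18a1 (5.6-fold), the source of endostatin. Col1a2, whose product pairs with that of Col1a1 in collagen I, was 2.96-fold lower, from a level of -1.93 with vehicle.

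Matrix glycoproteins split 3 higher and 3 lower of 16. Higher were Fn1, periostin Postn (5.86-fold) and thrombospondin Thbs1 (5.59-fold), each measured on both arrays. Lower were lumican Lum (at least 4.41-fold), Mfap5 (at least 3.81-fold) and tenascin C Tnc (at least 2.53-fold), each above background with vehicle only, and the median of -0.62 became 0.30 over the genes measured on both arrays. Of 11 fibroblast markers, 9 were not well above background on either array, among them Col3a1, Dcn, Pdgfra, Pdgfrb and Thy1. In that list only Postn and Lum were measured, Postn higher and Lum lower. The summed signal of these 2 genes, relative to the array's 75th percentile, was 3.66 with both agents and 0.91 with vehicle. Postn made up most of it, with levels of 1.86 with both agents and -0.69 with vehicle. The part of fibroblasts in the matrix differences was not tested. Among 22 proteases and inhibitors, 6 were higher and 4 lower. The metalloproteinases Mmp19 (5.74-fold) and Mmp11 (4.97-fold), Adam19 (3.79-fold), the protease inhibitor Serpine2 (4.4-fold) and Timp3 were among the higher ones. Plau, the urokinase plasminogen activator, was at least 14.1-fold lower, below the background threshold with TGF-β1 plus CCG1423, and Mmp16 was at least 17-fold lower, beside Mmp15 (2.53-fold) and Adam8 (2.12-fold). Of 13 integrin subunits 1 was higher, the laminin receptor subunit Itga7 (4.07-fold). Among 11 measured genes of epithelial-mesenchymal transition and adhesion, Axl, the adhesion molecule L1cam (3.28-fold) and the mesenchymal cadherin Cdh11 (2.24-fold) were higher, and plakoglobin Jup was at least 7.11-fold lower.

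DNA replication genes had the lowest median of the 18 groups plotted. All 40 members, each measured, had differences below 0; 25 were 2-fold or more lower, none was higher, and the median was -1.22. All 6 subunits of the MCM helicase were lower than with vehicle: Mcm7 stood at 3.22 with TGF-β1 plus CCG1423 and 5.27 with vehicle, Mcm5 was 3.17-fold lower, and Mcm3, Mcm4 and Mcm6 were between 2.51-fold and 2.73-fold lower, while Mcm2 differed by -0.89 on the log2 scale. Licensing factors Cdc6 (-0.12 with both agents against 1.86 with vehicle, 3.94-fold lower) and Orc1 (3.23-fold) were low, as were the nucleotide synthesis genes Tk1 (3.24-fold), Rrm2 (2.93-fold), Tyms (2.55-fold) and Rrm1 (2.54-fold), the sliding clamp Pcna (2.88-fold) and the flap nuclease Fen1 (3.2-fold). Among cyclins, Ccnd1 and Ccne1 (2.47-fold) passed 2-fold, but the D cyclins Ccnd2 (-0.49) and Ccnd3 (-0.42) did not. Mitotic genes were less far from vehicle: 30 of 32 differences were below 0 and the median was -0.65, with 4 genes 2-fold or more lower. Those were the spindle kinesin Kif11 (2.31-fold), the polo kinase Plk1 (2.23-fold), the proliferation marker Mki67 (2.07-fold) and cyclin B1, Ccnb1 (2.05-fold). Of 8 cyclin-dependent kinase inhibitors and related genes none was higher by 2-fold and 1 was lower, Rbl1 (2.18-fold), which encodes the pocket protein p107. The p21 gene Cdkn1a differed by -0.66.

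E2F factors drive many of these genes. The E2F site TTTCCCGC, searched on both strands of the same windows, was in 5 of 32 replication genes with a window (15.6%), against 2.21% of measured genes and 1.07% of all windows. The site was in 11 of 826 genes that were higher (1.33%) and 22 of 889 that were lower (2.47%). It is shown in capitals, here as its reverse complement, for the 2 of these 5 genes with the lowest differences.
Mcm7 (chr5:138171834-138172133, minus strand): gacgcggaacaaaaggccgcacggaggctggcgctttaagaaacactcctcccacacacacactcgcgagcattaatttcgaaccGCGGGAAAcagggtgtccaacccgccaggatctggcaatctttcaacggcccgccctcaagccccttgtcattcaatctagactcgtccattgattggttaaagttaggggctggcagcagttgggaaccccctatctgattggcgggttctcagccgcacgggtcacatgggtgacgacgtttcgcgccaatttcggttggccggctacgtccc
Cdc6 (chr11:98907901-98908200, plus strand): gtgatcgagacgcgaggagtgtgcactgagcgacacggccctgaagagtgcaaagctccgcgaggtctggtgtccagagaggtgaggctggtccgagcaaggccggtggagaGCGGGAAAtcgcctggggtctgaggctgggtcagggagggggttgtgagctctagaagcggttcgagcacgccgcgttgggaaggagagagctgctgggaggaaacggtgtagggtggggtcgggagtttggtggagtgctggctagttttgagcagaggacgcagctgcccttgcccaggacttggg
The other 3 were Mcm3, Rfc3 and Pold1.

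**Figure D4:**
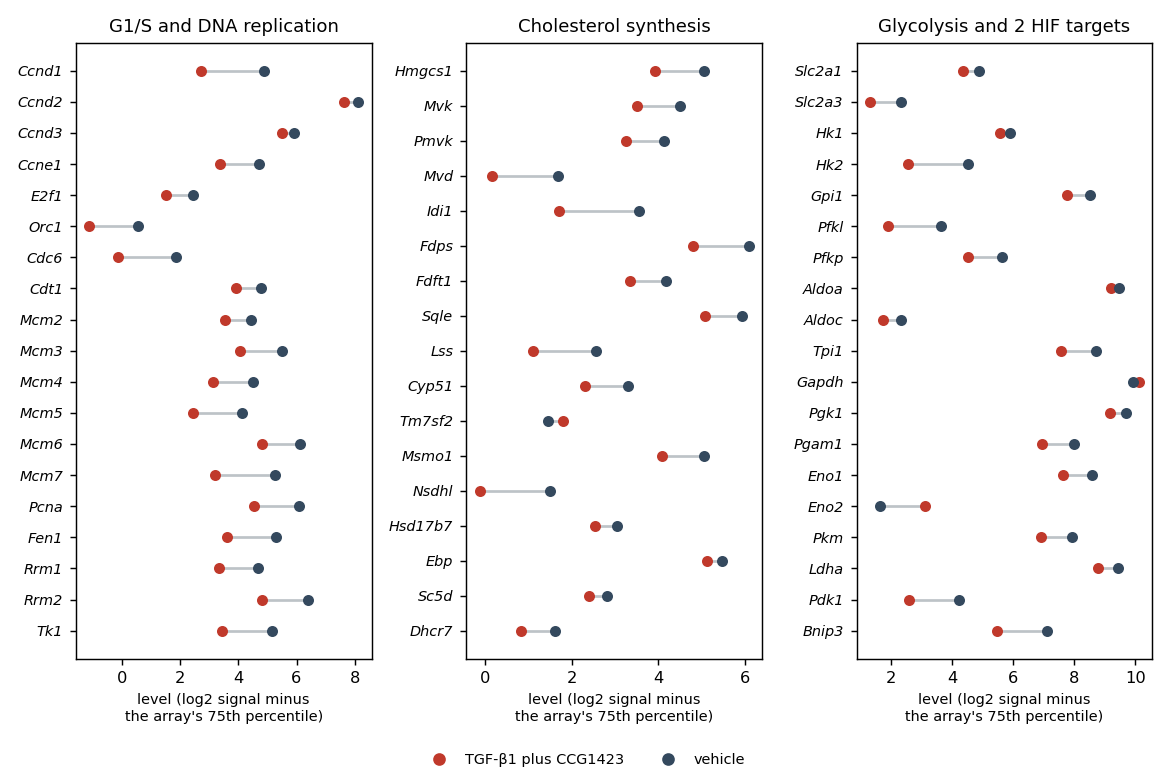
Level of each gene on the x axis (log2 signal minus the array's 75th percentile) with TGF-β1 plus CCG1423 in red and with vehicle in dark blue. Nearly all red points lie left of the blue ones in the 3 pathways, with Tm7sf2, Gapdh and Eno2 the exceptions among the genes drawn.

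Lipid synthesis was low. Of 23 measured genes of cholesterol synthesis and uptake, 22 had differences below 0 and 12 were 2-fold or more lower, with a median of -1.01. They lie along the pathway and include Hmgcs1 (2.21-fold), which acts ahead of mevalonate, Mvd (2.89-fold) and Idi1 (3.54-fold), which make isoprene units, Fdps (2.43-fold), which joins them, Lss (2.74-fold), which closes the sterol rings, and Cyp51 (2.01-fold) and Nsdhl (3.09-fold), which remove methyl groups from the sterol. Idi1 had levels of 1.71 with TGF-β1 plus CCG1423 and 3.54 with vehicle. The sterol sensor Insig1 (3.03-fold) and the sterol carrier Stard4 (2.5-fold) were low as well. Tm7sf2, a sterol reductase, was the only member above 0, at 0.35. Fatty acid synthesis, controlled by the related factor SREBP-1, had 3 of 16 genes lower and a median of -0.73. Those were the synthase Fasn (4.82 with both agents against 6.83 with vehicle, 4.03-fold lower), the desaturase Scd2 (3.51-fold) and the elongase Elovl6 (3.19-fold), while Srebf1, which encodes that factor, differed by -0.96. For the SREBP element TCACNCCAC, searched on both strands, 1 of 16 windows of the cholesterol group held a match, that of Hmgcs1 (6.25%), against 1.39% of measured genes and 1.24% of all windows. The element was also in 2 of 28 windows of glycolytic and hypoxia-inducible genes (7.14%) and in 0 of 26 of mitotic genes. Over all genes with a window the element was in 8 of 826 that were higher (0.969%) and 10 of 889 that were lower (1.12%).

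Glycolytic and hypoxia-inducible genes were also mostly low, at 25 of 30 below 0, with 12 lower and 1 higher by 2-fold and a median of -0.72. Adm, the vasodilator peptide adrenomedullin, was at least 11.3-fold lower, its signal with TGF-β1 plus CCG1423 being below the background threshold. Within glycolysis, Hk2 (2.55 with both agents against 4.50 with vehicle, 3.85-fold lower), which traps glucose, and the phosphofructokinases Pfkl (3.37-fold) and Pfkp (2.18-fold) were low, with Tpi1, Pgam1 and Pkm between 2.02-fold and 2.2-fold lower. Hypoxia-inducible regulators were low too: Pdk1 (3.14-fold), which closes the entry to the mitochondrial cycle, the mitophagy receptor Bnip3 (3.11-fold), and the oxygen sensors Egln1 (2.99-fold) and Egln3 (2.41-fold). The neuronal enolase Eno2 went the other way (2.8-fold higher). Hif1a differed by 0.44 and Gapdh by 0.18 on the log2 scale. Of 24 genes of oxidative phosphorylation none passed 2-fold, and their median was -0.25.

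Melanin and melanosome genes were mostly below their vehicle levels. Of 20 melanin enzymes and melanosome proteins, 15 were below 0, 7 were 2-fold or more lower and none was higher, with a median of -0.66. Tyr, the rate-limiting enzyme of melanin synthesis, had levels of -1.65 with TGF-β1 plus CCG1423 and 0.91 with vehicle, 5.9-fold lower. The melanosomal transporters Oca2 (5.11-fold), Slc24a5 (2.76-fold) and Slc45a2 (2.7-fold), the melanosome receptor Gpr143 (3.54-fold), Gpnmb (2.07-fold) and Tspan10 were also low. The melanosome antigens Mlana (-0.97) and Pmel (-0.42) and the melanin enzymes Dct (-0.29) and Tyrp1 (-0.17) stayed within 2-fold, as log2 differences. Mitf, the master regulator of the lineage, had levels of 5.36 with both agents, 6.59 with TGF-β1 alone and 6.59 with vehicle. It was 2.34-fold lower with both agents than with vehicle, and its 3 probes gave log2 differences of -0.95 to -1.23. Of 12 lineage regulators, 5 were lower and 2 higher. Lower with Mitf were the receptor kinases Met (3.58-fold) and Kit (2.14-fold), the melanocortin receptor Mc1r (2.69-fold) and the coactivator Cited1 (2.31-fold); higher were Erbb3 (2.22-fold) and Lef1 (2.15-fold). Sox10 (0.36) and Pax3 (0.91), which act above Mitf, had positive differences within 2-fold.

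**Figure D5:**
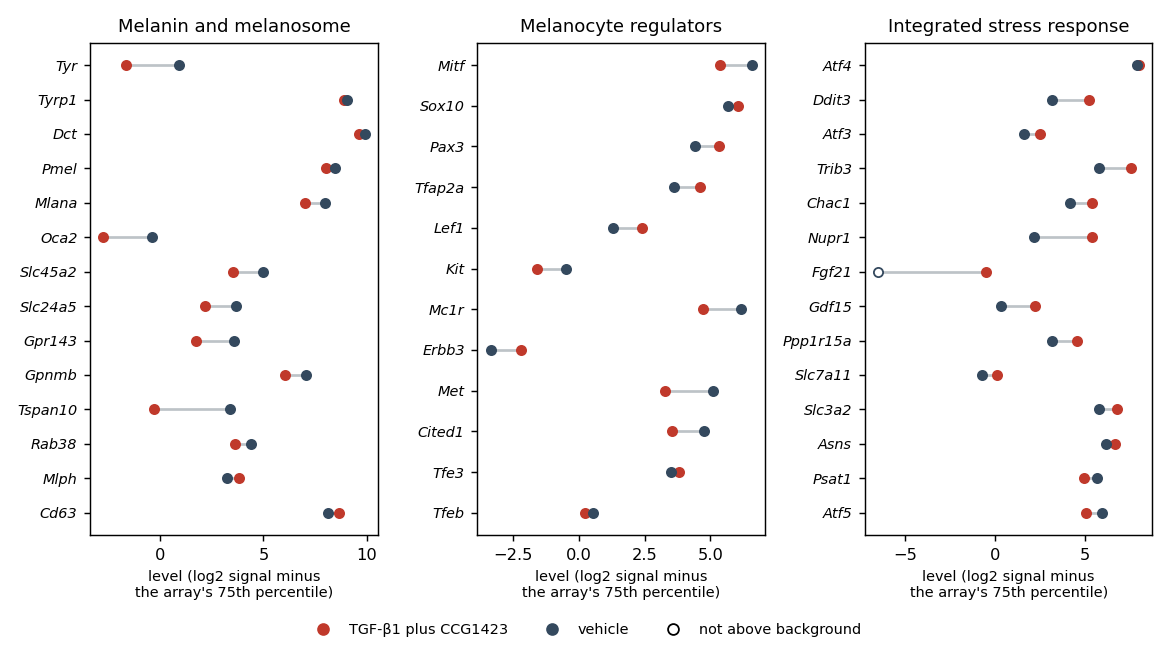
Level of each gene on the x axis (log2 signal minus the array's 75th percentile) with TGF-β1 plus CCG1423 in red and with vehicle in dark blue; an open point was not well above background. Tyr (-1.65 with both agents against 0.91 with vehicle) and Mitf (5.36 with both agents against 6.59 with vehicle) lie lower with TGF-β1 plus CCG1423, and Nupr1 (5.42 with both agents against 2.15 with vehicle), Ddit3 and Trib3 lie higher.

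The integrated stress response, in which the factors ATF4 and CHOP answer amino acid or endoplasmic reticulum stress, was high in part. Of 39 measured genes 12 were higher by 2-fold and none was lower, with a median of 0.50, while 9 were below 0. Ddit3, which encodes CHOP, had levels of 5.25 with both agents, 1.47 with TGF-β1 alone and 3.17 with vehicle. Fgf21, a stress-induced hormone, was at least 13.5-fold higher, against a dim signal below the background threshold in the vehicle culture. Trib3, a pseudokinase induced by CHOP, was 3.33-fold higher, and Ppp1r15a, which restores translation, was 2.58-fold higher. Chac1, which degrades glutathione, was 2.36-fold higher, and the amino acid transporters Slc7a5, Slc3a2 and Slc6a9 were between 2.01-fold and 2.21-fold higher; Nupr1, Gdf15, Aldh1l2 and Cebpb complete the 12. Atf4, which is controlled mainly at translation, differed by 0.15, Asns, the asparagine synthetase, by 0.50, and Psat1, a serine synthesis enzyme, by -0.73. Genes of the endoplasmic reticulum chaperone branch were mostly below 0: of 23 measured, 3 were lower and none higher, 17 were below 0 and the median was -0.43. Calr, calreticulin, was 2.24-fold lower, Sdf2l1 2.4-fold lower and Creld2 2.07-fold lower. Of 16 cytosolic heat shock genes 14 were below 0, and Hsph1, an HSP110 co-chaperone, was the 1 past 2-fold (3.4-fold lower).

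The element bound by ATF4 with CHOP, searched as TGATGNAA on both strands, was in 12 of 33 genes of the stress response with a window (36.4%), against 2.95% of measured genes and 3.97% of all windows. Among all genes with a window it was in 43 of 826 that were higher (5.21%) and 25 of 889 that were lower (2.81%). It stands in capitals, again as the reverse complement, in 3 of the higher members. All 3 were taken from the higher members, and whether members with the element were higher more often than the others was not tested.
Nupr1 (chr7:126625421-126625720, minus strand): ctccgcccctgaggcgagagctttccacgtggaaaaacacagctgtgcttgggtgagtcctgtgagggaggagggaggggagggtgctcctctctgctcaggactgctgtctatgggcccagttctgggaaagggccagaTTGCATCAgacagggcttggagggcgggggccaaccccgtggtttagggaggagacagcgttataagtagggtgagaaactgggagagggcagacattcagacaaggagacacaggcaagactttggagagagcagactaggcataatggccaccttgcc
Trib3 (chr2:152344011-152344310, minus strand): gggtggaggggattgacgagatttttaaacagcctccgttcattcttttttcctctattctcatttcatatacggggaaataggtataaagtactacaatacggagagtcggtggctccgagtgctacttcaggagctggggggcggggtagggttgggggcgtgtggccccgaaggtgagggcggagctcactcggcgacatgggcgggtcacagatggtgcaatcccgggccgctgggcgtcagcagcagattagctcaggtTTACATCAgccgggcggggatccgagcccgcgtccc
Chac1 (chr2:119350992-119351291, plus strand): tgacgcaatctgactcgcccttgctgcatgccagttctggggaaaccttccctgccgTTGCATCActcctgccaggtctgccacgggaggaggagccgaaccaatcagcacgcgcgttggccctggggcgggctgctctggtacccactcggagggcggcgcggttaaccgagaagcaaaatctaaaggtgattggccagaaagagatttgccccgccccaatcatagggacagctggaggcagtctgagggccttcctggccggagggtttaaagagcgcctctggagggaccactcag
Nupr1 had levels of 5.42 with TGF-β1 plus CCG1423 and 2.15 with vehicle, Trib3 7.54 with TGF-β1 plus CCG1423 and 5.80 with vehicle, and Chac1 5.41 with TGF-β1 plus CCG1423 and 4.17 with vehicle.

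Of 25 p53 targets, 3 were higher, with a median of 0.18: the growth arrest gene Gadd45a (5.72-fold), the ribonucleotide reductase subunit Rrm2b (2.46-fold) and Perp (at least 2.18-fold). Interferon response genes showed no common direction, with 1 of 36 higher, 2 lower and a median of -0.00; the chemokine Cxcl10 was 2.95-fold higher and Cmpk2 3.1-fold lower. Between the 2 knockout clones, by contrast, 34 of 38 measured genes of this group differed by 2-fold. Il6, an inflammatory cytokine, was at least 21.3-fold higher, its vehicle signal being below the background threshold, and stood at -0.45 with TGF-β1 alone. Clock genes had 6 of 17 higher, none lower, and a median of 0.53, among them the repressor Nr1d1 (3.58-fold) and the activator Dbp (2.53-fold). Immediate-early genes split: of 23, 3 were higher, led by Klf4 (4.42-fold), and 5 were lower, including Myc (0.43 with both agents against 2.46 with vehicle, 4.11-fold lower), Egr1 (at least 4.42-fold), the ERK phosphatase Dusp6 (2.7-fold) and Fos (2.09-fold). Of 28 lysosome and autophagy genes 4 were higher: the cathepsins Ctsl (3.24-fold) and Ctsd (2.4-fold), Map1lc3a (2.86-fold) and the cargo receptor Sqstm1 (2.16-fold). Among 26 ribosomal protein genes none passed 2-fold, and the differences had a median of 0.25.

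For 342 genes counted as higher and 273 counted as lower, only 1 array was above background, so these folds are bounds. A bound sets the measured level against the higher of the dim signal and the lowest signal well above background on that array. The 5 largest above vehicle were Acsbg1, an acyl-CoA synthetase (at least 130-fold), Tmem252 (at least 62.7-fold), Prss46 (at least 62-fold), the aldo-keto reductase Akr1b7 (at least 58-fold) and the peroxisomal oxidase Acox2 (at least 56.3-fold). Tmem252 and Akr1b7 were not well above background on any other array. The 5 largest below vehicle were Fn3k (at least 21.6-fold), Olfr619 (at least 19.6-fold), the desmosomal cadherin Dsc1 (at least 17.9-fold), Mmp16 (at least 17-fold) and Rapgef3os2 (at least 16.9-fold). Each of these rests on 1 spot per array, and a second probe of Fn3k gave a bound of -0.26 on the log2 scale.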

How the data were processed

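The deposited intensity values are the processed signals of 1-colour Agilent arrays. Per the file headers, Agilent Feature Extraction 12.0.3.1 made these intensities by subtracting background and removing spatial trends on each array, with no step between arrays. Groups came from the sample titles, treatment fields and descriptions. The labels do not say whether the cultures were grown separately. Per the file headers all 5 arrays shared a slide and a scan, so no batch could be tested.

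On each array 3671 control spots and 107 to 141 outlier spots were left out, log2 signals were averaged per probe, and levels were set relative to the array's 75th percentile over 56595 probes. A probe was measured when at least 0.5 of its spots were flagged well above background on at least 1 of the 2 arrays. Folds use a floor, the lowest signal well above background on that array, while differences and medians use the signal as measured. Probes were named through RefSeq accessions without version and a RefSeq gene table of GRCm38.p6, which named 32988 and left 23607 unnamed. The array headers give build mm9, so no probe coordinates are printed. The measured probe with the highest mean stood for a gene. Probes of near-identical copies may share signal.

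The text names the 15 highest and 15 lowest genes measured on both arrays whose mean level exceeds that set's median, the 5 highest and 5 lowest bounds, Tmsb4x, and members of gene lists. Some genes that meet this rule are not reported here by name, though they stay in the counts. The members and lists were chosen with earlier results of these data known. Of 1035 list entries 1034 matched the gene table.

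Alternatives changed the scale, background correction, starting table, filter, floor, threshold and probe rule; 1 of them, normexp on the median spot signal, was chosen after seeing the data, since the files hold no mean signal. The fold counts and a limma 3.58.1 fit (R 4.3.3) were tested on simulated data. All simulated arrays had the same spread, taken from the knockout clones, so the test could not check whether single arrays vary like the clones. Other steps ran in Python 3.11.15 (pandas 2.3.3, numpy 2.4.6, matplotlib 3.10.9). The number of arrays limits the precision.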

Additional observations from a re-analysis of the deposited data

How the results depend on the processing

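With 1 array per condition no difference has a replicate check, and dim genes, bounds and genes with a single probe are the least certain. Gene counts stayed within 1.5 times of 1068 higher and 1120 lower under quantile normalization (1093 and 1066), another scale (1113 and 1062), the deposited value table (1013 and 1179), no floor (1176 and 1410), the mean over probes (1069 and 1090), all probes of a gene past 2-fold (963 and 965), and a choice among only those probes above background on both arrays (728 and 847). Normexp correction with an offset of 50 gave 531 higher and 670 lower genes and 1064 and 1124 probes. Without a filter on dim probes 1909 genes were higher and 1804 lower (4806 and 4358 probes), and 3-fold left 457 and 359 genes (1038 and 799 probes). Only probes above background on both arrays left 1609 higher. A limma fit on all 5 arrays, which takes its spread from the 2 knockout clones and assumes that single arrays vary like them, called 334 genes higher and 357 lower at an adjusted p of 0.05 (625 and 607 probes), with 2748 genes under an unadjusted p of 0.05. Of 843 gene differences named or listed, none past 2-fold changed sign under the 5 alternatives run on them. For 2 of these, the other scale and the deposited value table, this was fixed in advance. They shift all differences alike, with gene medians of -0.02 and -0.08 against -0.05, too little to reverse a 2-fold difference. The mean over probes leaves genes with a single probe unchanged. Normexp moved 169 by more than the clones' spread of 0.19, the mean over probes 88 and quantile normalization 21. That spread is not an SD but the median absolute log2 difference between the 2 clones over probes, divided by the square root of 2. Of 46 list medians, 6 moved by more than that spread under the mean over probes and 4 under normexp, and 1 was reversed, matrix glycoproteins, at 0.30 over genes above background on both arrays. The background correction on the mean spot signal was not run. No paired analysis was possible because each condition has 1 array.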

Other observations

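Signalling genes at the cell surface differed in both directions. Over all genes 7.7% were higher and 8.07% lower by 2-fold, and counts of 1 or 2 in groups this small cannot be told from those shares. Of 18 measured receptor tyrosine kinases and ligands, 5 were higher with TGF-β1 plus CCG1423 and 2 lower by 2-fold, among them the collagen receptor Ddr1 (2.43-fold higher) and the insulin receptor Insr (2.15-fold higher). Of 18 semaphorins, plexins and neuropilins, 3 were higher and 1 lower: the guidance ligand Sema3c had levels of 2.66 with TGF-β1 plus CCG1423 and -0.95 with vehicle, 12.2-fold higher, and Sema7a was 5.95-fold higher. Of 10 angiogenic ligands 3 were higher and none lower, with Pdgfb, a mesenchymal growth factor, at 0.47 with TGF-β1 plus CCG1423 and -2.72 with vehicle, 9.18-fold higher, and Angptl6 6.45-fold higher. Of 16 NF-kB and cytokine genes 2 were higher and 1 lower, including the macrophage growth factor Csf1 (2.15-fold higher). Of 15 genes of MHC class I presentation 2 were higher and 1 lower, with the peptide transporter Tap2 2.84-fold higher.

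Redox, metal and lipid export genes past 2-fold lay in both directions, with most counts near the shares over all genes (7.7% higher and 8.07% lower). Of 20 NRF2 targets none was higher and 3 were lower, among them Pgd (3.09-fold) and G6pdx (2.28-fold), the dehydrogenases of the pentose phosphate pathway. Of 17 glutathione transferases 1 was higher and 1 lower, Gsta2 (7.26-fold), whose close copies may share its probe's signal. The aryl hydrocarbon receptor gene Ahr was 3.29-fold lower, the only one past 2-fold of 5 measured in its pathway. The iron exporter Slc40a1 was at least 10.5-fold higher and the transferrin receptor Tfrc 2.01-fold lower, the 2 past 2-fold of 12 metal genes. Of 8 sterol efflux genes 2 were higher and 1 lower, the cholesterol exporter Abca1 (2.57-fold). Of 8 S100 genes S100b was 2.09-fold higher and S100a4 3-fold lower. Among 17 housekeeping genes 1 passed 2-fold, Tfrc, and their median was -0.25.

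By transcript class, 105 of 741 measured lncRNA genes were higher (14.2%) and 85 lower (11.5%), against 7.37% and 7.83% of 12976 protein-coding genes. The classes were not matched for level, and the share of genes at 2-fold was larger among dim genes. Probes without a gene name added 975 higher and 784 lower of 10579 measured. Of the markers of other cell types, the summed linear signals relative to the array's 75th percentile were 42.7 with TGF-β1 plus CCG1423 and 33.7 with vehicle for immune cells, 2.59 and 4.21 for endothelial cells, and 0.47 and 0.86 for epithelial cells. These sums cover only the measured markers, 6 for immune, 2 for endothelial and 4 for epithelial cells. On each array 1 marker made up most of the immune sum, at a level of 4.87 with both agents and 4.71 with vehicle.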
